A study of Bos taurus with 18 samples.

Results

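The window studied here lies on cattle chromosome 14 (BTA14), from chr14:448510 to chr14:2448510 on the UMD3.1 genome, which is 1 Mb on either side of the lead variant of a gestation length QTL at position 1448510. A QTL is a stretch of the genome where genetic variants are associated with a trait. The window is covered by 1001 regions of 2000 bp. The 130 regions that touch the 12 fine-mapped genes of the study or their 2000-bp flanks were left out, and of the other 871 regions the 770 with at least 1 listed CpG position in 9 or more of the 18 bulls were kept as the window regions. Of the 101 that were not kept, 82 were listed in 1 to 8 bulls and 19 in none. In the whole genome 1186985 regions met the same minimum, and 362 of the 770 window regions were listed in all 18 bulls. The rule itself uses no methylation level, but the window and its members were chosen with earlier results of these data known.

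Sperm DNA of 18 Holstein bulls had been sequenced after bisulfite treatment, which converts unmethylated cytosines and leaves methylated ones as they are. Each bull is represented by 1 sample of semen, and the bulls were grouped as high or low for a trait. For gestation length (GL) the high bulls were H03, H09, L03 and L05 and the low bulls H02, H05, L01 and L07. For sire calving ease (SCE) the high bulls were H03, H07 and L02 and the low bulls H01, H06 and L09. For body depth (BDE) the high bulls were H02, L03 and L08 and the low bulls H05, H09 and L02. For cow conception rate (CCR) the high bulls were H08, H09 and L06 and the low bulls H06, L08 and L09. For sire conception rate (SCR) H01, H02 and H03 were high and L01, L02 and L03 low. The study formed the groups of GL, SCE, BDE and CCR by genetic merit. It does not describe the SCR groups, which the labels give as high or low only. H04 and L04 carry no group. The traits therefore share bulls, and H09 is low for BDE but high for CCR, whereas L08 is high for BDE but low for CCR. The H and L of a name do not give the group of any trait other than SCR.

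In mature sperm most CpG sites of the genome are methylated, whereas promoters with many CpG sites and some repeated sequences stay unmethylated or are methylated in only part of the molecules. A methylation level between the extremes at 1 site means that the reads placed at that site differ. The 12 genes left out are ZNF16, a zinc finger gene at chr14:1426211-1459491 that holds the lead variant, ARHGAP39, SLC39A4, CPSF1, ADCK5, SLC52A2, FBXL6, SCRT1, DGAT1, HSF1, BOP1 and MROH1, which ends at chr14:1894471. DGAT1 encodes an enzyme of triglyceride synthesis that is known for its effect on milk fat, and SLC39A4 encodes a zinc transporter. In the gene order of another assembly, ARS-UCD2.0, ZNF250 and an olfactory receptor gene stand before ZNF16, C14H8orf33, ZNF34, RPL8, ZNF7 and COMMD5 between ZNF16 and ARHGAP39, and MAF1, SHARPIN, CYC1, GPAA1, EXOSC4, OPLAH, GRINA and PLEC are among the genes after MROH1. RPL8 encodes a ribosomal protein, CYC1 a subunit of the respiratory chain, and GPAA1 a protein that helps to attach membrane anchors. An annotation of UMD3.1 was not used here, so window regions are placed by the 12 listed genes only, and the sequences of the regions are not shown.

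The bulls listed between 2858992 positions in H01 and 22048556 in H08 over the genome, and between 7714 and 22779 positions in the window regions, again in H01 and H08. The cytosines of both strands of a CpG were listed apart, each covered by at least 10 reads. Read counts, from 10 to 100 per position, were deposited for H01, H02, H03, L01, L02 and L03, and the depth of the other 12 bulls is unknown.

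The window was less methylated than the rest of its chromosome in every bull. Averaged over those of the 770 regions that a bull listed, the level ranged from 52.6% in H01 to 65.3% in H07. H01 listed only 485 of the regions and H07 670. Over the 362 regions listed in all bulls L06 was lowest with 40.3% and L03 highest with 55.0%, and H01 had 47.2%. The mean over bulls was 59.7% ± 3.36 (SD, n = 18) in the window, whereas the 39386 other chromosome 14 regions averaged 87.1% ± 1.07 (SD, n = 18). The paired difference was -27.3 ± 2.80 percentage points (SD, n = 18), lower in the window in 18 of 18 bulls (permutation test with 100000 sign flips, two-sided, p = 2e-05, the smallest value these flips can give). Against the 112 regions of the listed genes and their flanks in the same window, which averaged 81.4% ± 2.54, the difference was -21.6 ± 3.87 points, also lower in 18 of 18 bulls (permutation test, p = 2e-05). The 18 bulls are separate animals, and no group enters these comparisons.

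The low level lay mostly on 1 side of ZNF16. The 445 window regions upstream of ZNF16, from chr14:448001 to chr14:1424000, had a mean of 47.5% ± 4.57 (SD over 18 bulls), and the 325 regions downstream of its start had a mean of 78.4% ± 2.18. Upstream regions alone were 39.6 ± 3.98 points below the rest of chromosome 14 on average. Downstream regions alone were 8.64 ± 1.86 points below it, lower in 18 of 18 bulls, and 2.96 ± 2.46 points below the regions of the listed genes, lower in 16 of 18 bulls (permutation test, p = 6e-05). This split of the window was chosen after the levels along it had been seen.

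**Figure D1:**
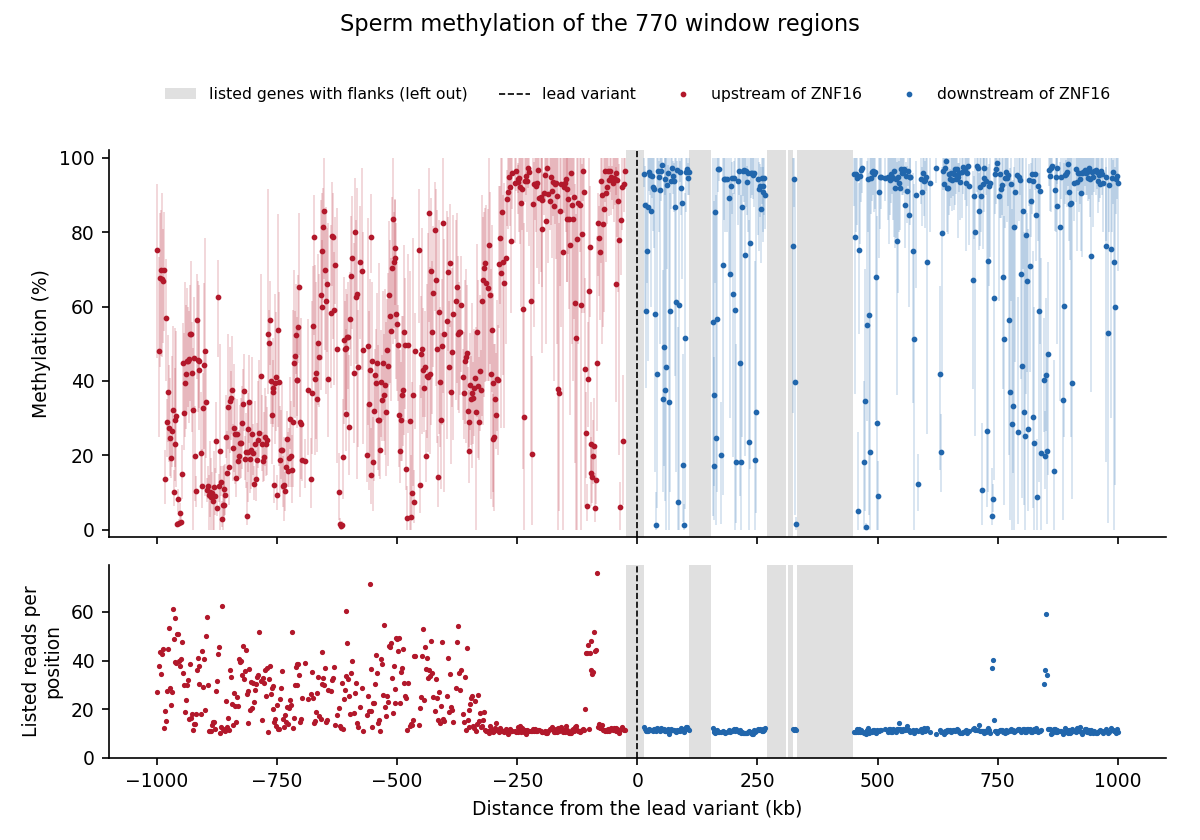
Methylation of the 770 window regions (upper panel, percent; points are means over the bulls that list a region and bars run from the lowest to the highest bull) and mean listed reads per position in the 6 bulls with read counts (lower panel), by distance from the lead variant in kb. Upstream of ZNF16 the levels average 47.5% and most regions lie between 20% and 80%, whereas downstream most lie above 80%, and deeply listed regions stand almost only on the upstream side.

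Regions with a mean under 20% were called low, those above 80% high and those between them intermediate. Upstream of ZNF16, 78 regions (17.5%) were low, 278 (62.5%) intermediate and 89 (20%) high. Between ZNF16 and ARHGAP39 the 47 regions held 4 low, 13 intermediate and 30 high ones. The 49 regions between ARHGAP39 and SLC39A4 held 4 low, 14 intermediate and 31 high ones, and only 4 regions remained between SLC39A4 and MROH1. Downstream of MROH1, 11 of 225 regions (4.89%) were low and 162 (72%) high. In the rest of chromosome 14, 1.24% of the regions were low, 13.8% intermediate and 84.9% high. The window members nearest to these limits had means of 19.92% and 20.03% at the lower limit and 79.91% and 80.08% at the upper one, so the classes are ranges and not separate kinds of region.

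In steps of 100 kb, the mean level was 35.6% in the 48 regions from 1000 to 900 kb before the lead variant and 20.7% in the next 50 regions, the lowest of all steps. It was 29.6%, 46.6%, 49.4%, 42.1% and 48.8% in the following 5 steps. From 300 to 200 kb before the variant it was 77.1% in 44 regions, of which 27 were high, and in the last 100 kb before the variant 70.4%. After the variant the steps ranged from 52.9%, in a step of only 4 regions, to 89.6% in the last one. The change from intermediate to high levels upstream of ZNF16 thus fell about 300 kb before the lead variant and not at the gene.

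The depth changed at about the same place. The median region in the 3 steps on either side of that change was listed at 25.4, 30.8 and 18.1 reads per position before it and at 11.1, 11.4 and 12 reads after it. Upstream of ZNF16 the mean listed reads per position were between 29.5 and 32.0 in the 6 bulls with read counts, and in the rest of chromosome 14 between 12.6 and 13. At 15 reads per position the window divides into 268 more deeply listed regions, 261 of them upstream, and 502 others. The 268 regions had a mean of 38.8% ± 5.34 (SD, n = 18 bulls), with 54 low, 207 intermediate and only 7 high members. The 502 others had a mean of 73.2% ± 2.04. Within the upstream stretch alone, the 184 regions under 15 reads had a mean of 61.7% ± 3.47 and the 261 others one of 39.1% ± 5.39. Whether the depth and the level share a cause was not tested. In other autosomes and the rest of chromosome 14, 4207 regions listed in all 18 bulls had a mean of 25 reads or more, and these averaged 23.3% ± 1.49, with 64.7% of them low and 32.7% intermediate. Deeply listed regions were thus mostly low elsewhere and mostly intermediate in the window.

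The intermediate level of the upstream regions was also seen at single positions. Among positions covered by at least 20 reads, each of the 6 bulls had between 4064 and 5358 in the upstream regions, and between 50.9% and 57.5% of them had a level from 20% to 80%. In the deeply listed regions elsewhere the same share was between 22.5% and 28.7%. The ranges of the 6 bulls did not overlap, and the upstream share was the higher one in 6 of 6 bulls. The share of positions above 80% upstream was between 3.04% in L02 and 13.4% in L03.

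Low regions formed runs in the upstream stretch. The 98 low window regions fell into 60 runs of adjacent regions, of which 43 were single regions and 6 held 3 regions or more, all 6 upstream of ZNF16. The longest run was chr14:552001-570000, 9 regions with a mean of 9.97% ± 1.65 (SD, n = 18), from 7.28% in L06 to 12.5% in H03. The run chr14:490001-502000 of 6 regions had a mean of 5.47% ± 1.08 and held 874 distinct positions, at a mean of 44.5 listed reads. Also 6 regions long was chr14:580001-592000, with a mean of 8.21% ± 1.58. The 5 regions of chr14:826001-836000 averaged 7.04% ± 2.33, and the 4 regions of chr14:710001-718000 averaged 12.7% ± 2.70. The mean of a bull over any of these 5 runs was at most 17.2%, but in single regions of the runs a bull had up to 35.2%, and some of these regions were listed in only 12 to 14 bulls. Regions next to these runs could be far higher, and chr14:836001-838000, which adjoins the fourth run, had a mean of 51.0%. The first window region, chr14:448001-450000, had a mean of 75.2% ± 13.4 (SD, n = 18), from 46.2% in H09 to 92.9% in L03. The last one, chr14:2448001-2450000, was listed in 10 bulls only and had a mean of 93.3% ± 9.6.

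Over the 445 upstream regions, regions with more distinct listed positions tended to be less methylated (Spearman's rho = -0.46 across regions), and over the 325 downstream regions the value was -0.13. Regions are neighbours on 1 chromosome and not independent, so these values are given as a description.

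The bulls differed widely in the level of the upstream stretch. Over the 290 upstream regions listed in all 18 bulls, L06 had 31.7%, H09 32.8%, L04 37.1%, H05 37.3%, L02 37.5%, L09 37.5% and L01 37.7%. L05 followed with 39.0%, H01 with 39.3%, L07 with 40.5%, H03 with 41.1% and H06 with 42.4%. The highest were H08 with 44.1%, H02 with 44.4%, H04 with 45.1%, L08 with 47.2%, H07 with 47.7% and L03 with 48.6%. The 2 lowest bulls, L06 and H09, lay 4.30 points below the next one, whereas no other neighbours in this order were over 2.15 points apart. The range of 17.0 points between L06 and L03 compares with 6.94 points over the 72 downstream regions listed in all bulls, 5.15 points over 12380 other chromosome 14 regions and 6.46 points over the deeply listed regions elsewhere. At the 2678 upstream positions listed in all 18 bulls, where every bull is measured at the same sites, the level ran from 26.9% in L06 to 45.2% in H07, a range of 18.3 points. At the 79 downstream positions listed in all bulls the range was 15.4 points, from 9.95% in L02 to 25.3% in H06. The 7 downstream regions with 15 or more listed reads ranged from 14.9% to 39.4%, so the wide range was not limited to the upstream side.

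**Figure D2:**
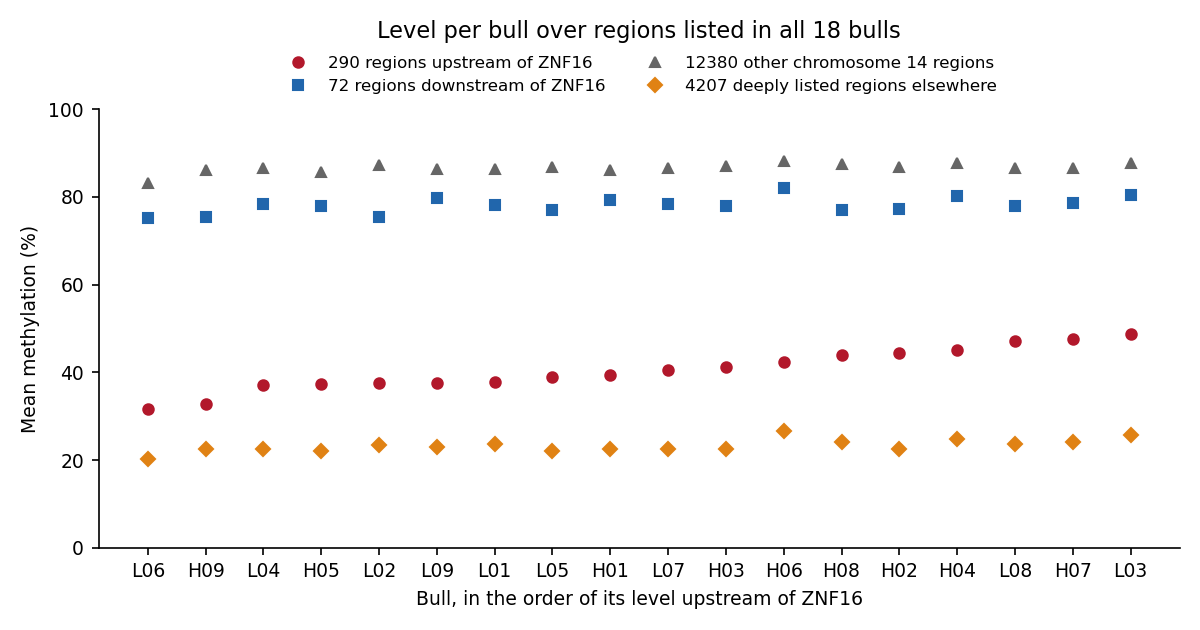
Mean methylation (percent) of each of the 18 bulls over regions listed in all bulls, with bulls in the order of their level upstream of ZNF16. The upstream level runs from 31.7% to 48.6%, while the other 3 sets of regions range over 5.15 to 6.94 points.

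Upstream regions moved together between bulls. Over the 18 bulls, the median correlation between 2 upstream regions was 0.38 and the median correlation of a region with the sum of the others 0.69. For the 72 downstream regions these values were 0.035 and 0.13, and for 1000 evenly spaced regions of the rest of chromosome 14 they were 0.026 and 0.17. Over all their regions, these 2 sets had a median of 11.2 and 11.5 listed reads per position, against 19.4 upstream, and were mostly high. The deeply listed regions elsewhere were not compared in this way, and the part of depth and level was not tested. L03 was above the median bull in 257 of the 290 upstream regions and L08 in 253, whereas L06 was above it in 23, H09 in 43 and H05 in 56. The upstream regions are therefore not independent measurements of a bull, and counts of upstream DMRs are not counts of independent differences.

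The upstream level of a bull also went with its level outside the window. Its Pearson correlation with the deeply listed regions elsewhere was 0.68 (permutation p = 0.0014, Benjamini-Hochberg adjusted p = 0.0046 over 4 relations) and Spearman's rho was 0.65 (permutation p = 0.0052, adjusted p = 0.010). Without H06 and L03, the bulls farthest from the median, r was 0.71, and within the 6 bulls with read counts and the 12 without it was 0.56 and 0.71. With the rest of chromosome 14 r was 0.65 (permutation p = 0.0023, adjusted p = 0.0046) and rho 0.67 (permutation p = 0.0032, adjusted p = 0.010), and r was 0.58 without L06 and H06 and 0.65 and 0.66 within both kinds of file. With the downstream regions r was 0.53 (permutation p = 0.022, adjusted p = 0.030) and rho 0.48 (permutation p = 0.045, adjusted p = 0.060), and r was 0.47 without H06 and L06 and 0.59 and 0.52 within the file kinds. With the number of positions a bull lists r was -0.22 (permutation p = 0.38, adjusted p = 0.38) and rho -0.27 (permutation p = 0.28, adjusted p = 0.28). It was -0.21 without H08 and L06 and -0.32 and -0.16 within the file kinds. Without L06 and H09, which stand apart in the upstream level, the 16 other bulls gave an r of 0.57 with the deeply listed regions elsewhere, 0.46 with the rest of chromosome 14, 0.28 with the downstream regions and -0.23 with the number of positions, so the first 3 relations were weaker without these 2 bulls and the fourth was about the same. These relations, and the bulls left out, were chosen after the levels had been seen.

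The high and low groups of each trait were compared region by region. A region was called a DMR (differentially methylated region) when a logistic regression fitted to all 2000-bp regions of the genome gave q under 0.01 and the groups were over 5 percentage points apart, and differences are high minus low group. That test treats every read as a separate observation and does not estimate how much bulls of 1 group vary. Of 3 further readings, the difference at matched positions (those that 1 bull or more in both groups list) and a test stratified by these positions take account of which positions were listed. The stratified test also counts reads, 10 assumed for each position in all 5 traits, so like the logistic test it covers counting error only. The last reading is whether the bulls of both groups overlap. The spread between bulls is estimated by limma and by an F test with overdispersion. Both called 0 window regions in each of the 5 traits, and 0 of all tested regions of the genome as well. Shares of the window are set beside those of the genome.

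For BDE, the window was mostly more methylated in the high group. Of 476 tested window regions 194 (40.8%) were DMRs, 185 of them higher and 9 lower in high BDE, where 7.57% of all 550314 tested regions were called. The median difference of the 476 regions was 6.69 points and that of all tested regions 0.56 points. When only matched positions were read, 172 of the 194 (88.7%) still differed by over 5 points the same way against 50.8% of the DMRs of the genome, the stratified test called 130 regions of the window (27.4%) against 1.59% of the genome, and the 2 groups did not overlap in 198 regions (41.6%) against 10.1% of the genome. Upstream of ZNF16, 171 of 319 regions (53.6%) were DMRs, 170 of them higher in high BDE, with a median difference of 10.8 points. Downstream 23 of 157 (14.6%) were DMRs, with a median of 1.07 points.

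Over the 290 upstream regions the high-BDE bulls had 44.4% (H02), 48.6% (L03) and 47.2% (L08), and the low-BDE bulls 37.3% (H05), 32.8% (H09) and 37.5% (L02). All 3 high bulls stood above all 3 low bulls, with the highest of the 18 bulls, L03, in the high group and the second lowest, H09, in the low group. Over the window regions listed in the 6 bulls the mean was 58.3% ± 1.70 in high and 50.8% ± 1.59 in low BDE (SD, n = 3 each), a difference of 7.5 points (exact permutation test, two-sided, p = 0.10, which is the smallest value that 3 against 3 bulls allow, adjusted p = 0.50 over the 5 traits). Upstream of ZNF16 it was 10.3 points and downstream 1.72 points, without overlap in either. The same difference was 1.32 points over the deeply listed regions elsewhere and 0.62 points over the rest of chromosome 14, where the groups overlapped. At the 4333 upstream positions listed in all 6 bulls it was 10.4 points. Over the window it was 6.35 points within the 3 bulls with read counts and 8.31 points within the 3 without, where 1 group holds 1 bull and no test was made.

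The BDE differences followed the more deeply listed regions. Of the 258 tested regions with 15 or more listed reads 160 (62%) were DMRs, all of them higher in high BDE, with a median difference of 11.98 points. Of the 218 others 34 (15.6%) were DMRs, with a median of 1.22 points, and within the upstream stretch alone 13 of 68 such regions (19.1%) were. The 4207 deeply listed regions elsewhere had 8.39% DMRs. Among regions of intermediate level listed in all 18 bulls at 25 or more reads per position, 110 of 140 upstream regions (78.6%) and 306 of 1377 regions elsewhere (22.2%) were called. In steps of 100 kb, 34 of 45 regions were called in the first step of the window and between 36.4% and 72.7% in the following 6 steps. From 300 to 200 kb before the variant 0 of 9 were called, and in the next steps up to the variant 2 of 9 and 7 of 29. After the variant between 0% and 28% of a step were called, against 7.57% of all tested regions.

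5 upstream regions were singled out after their values had been seen, for the largest BDE differences over at least 10 matched positions. This choice favours high counts of positions that are higher in high BDE. Positions of the same region and the same bulls are also not independent, so the counts below are given as a description. In chr14:1030001-1032000 the high bulls had 55.1% (H02), 70% (L03) and 85.6% (L08), and the low bulls 34.3% (H05), 23.4% (H09) and 41.4% (L02). The pooled difference was 34.5 points and that at 15 matched positions 27.9 points, with 14 of the 15 positions higher in high BDE. In chr14:1034001-1036000 the high bulls had 63.9%, 76.7% and 74.4% and the low bulls 59.1%, 25.7% and 49.3%, in the same order, with 13 of 13 matched positions higher.

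In chr14:1040001-1042000 the values were 67.4%, 64.2% and 60.2% against 48.6%, 29.8% and 44.4%, with 16 of 16 positions higher. These 3 regions lie close together, between 500 and 400 kb before the lead variant, and the groups did not overlap in any of them. In chr14:836001-838000 the high bulls had 55.3%, 57.6% and 61.3% and the low bulls 28.4%, 47.2% and 38.4%, with 18 of 19 positions higher. In chr14:520001-522000, at the far end of the stretch, they had 48.0%, 55.9% and 52.4% against 39.2%, 28.2% and 28.2%, with 22 of 23 positions higher.

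**Figure D3:**
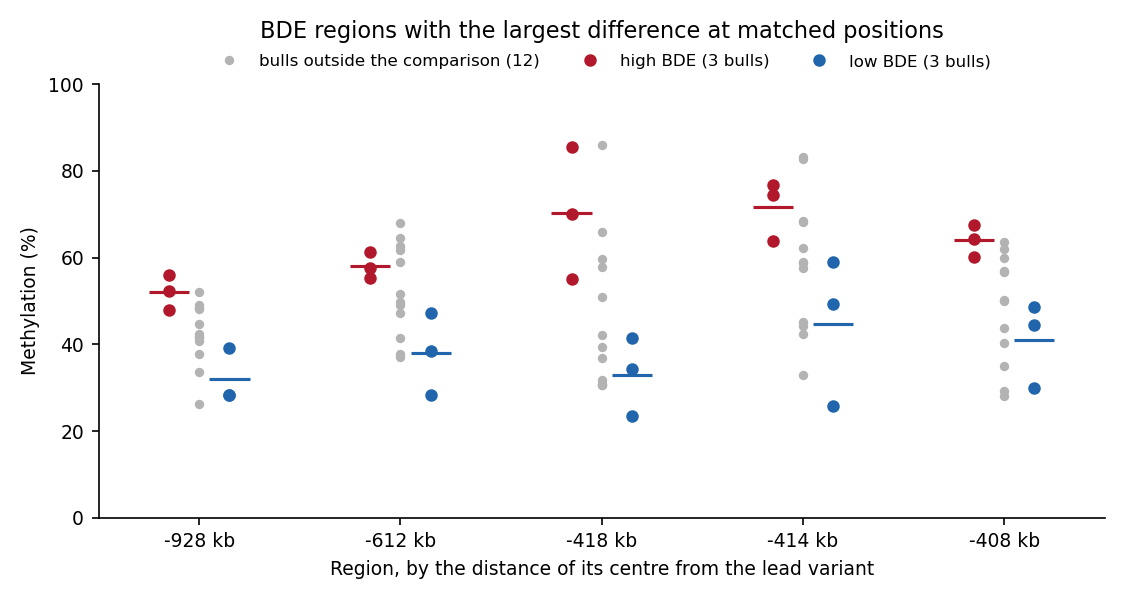
Methylation (percent) of the 5 upstream regions with the largest BDE difference at matched positions, by the distance of the region's centre from the lead variant; points are single bulls and short lines the means of the 3 high and 3 low bulls. In each region the lowest high-BDE bull is above the highest low-BDE bull, which the choice of regions by their difference favours. The bulls outside the comparison spread over both groups.

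The BDE regions with the largest pooled gains lay downstream, and their differences were smaller at matched positions. In chr14:2424001-2426000 the high bulls had 78.5% (H02), 93.8% (L03) and 97.4% (L08) and the low bulls 18.1% (H05), 33.2% (H09) and 38.2% (L02). The pooled difference was 57.9 points, but the bulls listed between 7 and 33 positions each, and at the 12 matched positions the difference was 5.54 points. In chr14:2284001-2286000 the values were 95.8%, 81.4% and 84.3% against 38.9%, 67.4% and 39.1%, with a difference of 40.1 points pooled and 19.2 points at 5 matched positions.

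The named BDE losses lay on both sides of ZNF16. In chr14:1604001-1606000, between ARHGAP39 and SLC39A4, the high bulls had 46.6%, 3.75% and 44.8% and the low bulls 63.1%, 57.0% and 69.4%, which is a difference of -39.0 points pooled and -12.3 points at 3 matched positions. In chr14:1372001-1374000, upstream of ZNF16, the high bulls had 96.4%, 92.0% and 71.8% and the low bulls 98.5%, 100% and 97.5%, and only L08 stood far below the others. L08 listed 3 positions in that region. The difference there was -11.2 points pooled and larger, at -17.7 points, over 4 matched positions.

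None of the BDE differences passed a test that estimates the spread between bulls, and neither did any other tested region of the genome. limma, run on log2 ratios of reads with and without methylation, called 0 window regions, with 49 of 476 (10.3%) at an unadjusted p under 0.05 against 4.41% of the genome, and the F test with overdispersion called 0, with 124 (26.1%) at an unadjusted p under 0.05 against 3.06% of the genome. When 1 bull was left out and the logistic test run again, between 164 and 200 DMRs were called in place of 194. In the genome these runs called between 6.93% and 7.79% of the tested regions.

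For CCR, most window differences had the opposite sign. Of 510 tested regions 147 (28.8%) were DMRs, 142 of them lower and 5 higher in high CCR, where 11.1% of all 550878 tested regions were called, and the median difference was -3.98 points against -0.97 for all tested regions. At matched positions 118 of the 147 (80.3%) were kept against 62% of the DMRs of the genome, and the stratified test called 94 (18.4%) against 4.37% of the genome. The groups did not overlap in 66 regions (12.9%), which is near the 9.94% of the genome. Upstream of ZNF16 111 of 332 (33.4%) were DMRs and downstream 36 of 178 (20.2%). Of the 140 upstream regions of intermediate level listed at 25 or more reads per position 70 (50%) were called, all of them lower in high CCR, with a median difference of -8.45 points. Of the 1377 such regions elsewhere 305 (22.1%) were called, 240 of them lower, with a median of -2.72 points.

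In the 290 upstream regions the high-CCR bulls had 44.1% (H08), 32.8% (H09) and 31.7% (L06) and the low-CCR bulls 42.4% (H06), 47.2% (L08) and 37.5% (L09). H08 stood above 2 of the 3 low bulls, so the groups overlapped, and the lower level of the high group was that of H09 and L06, the lowest bulls of all 18. H09 and L08 are also in the BDE groups with the opposite label, so the 2 comparisons are not independent. Over the window the mean was 51.5% ± 4.48 in high and 56.7% ± 2.98 in low CCR (SD, n = 3 each), a difference of -5.21 points (exact permutation test, two-sided, p = 0.20, adjusted p = 0.50). With the same weight for each listed position it was only -0.98 points (p = 1 in the same exact permutation test). Upstream it was -6.01 points with overlap, and downstream -3.72 points without overlap (exact permutation p = 0.10, the smallest possible). The rest of chromosome 14 differed by -1.53 points and the deeply listed regions elsewhere by -2.20 points in the same direction, with overlap in both. All 6 CCR bulls lack read counts.

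The largest CCR loss was chr14:2254001-2256000, downstream of MROH1, where the high bulls had 11.3% (H08), 8.24% (H09) and 14.3% (L06) and the low bulls 47.6% (H06), 79.5% (L08) and 66.0% (L09). The difference was -53.6 points pooled and -39.5 points at 13 matched positions, and the low bulls listed only 4 or 5 positions each. In limma this region had an adjusted p of 0.59, the smallest of the window in any of the 5 traits. In chr14:1946001-1948000 the high bulls had 31.5%, 20.7% and 16.7% and the low bulls 84.2%, 0% and 65.0%, and the groups overlapped through L08, which listed 1 position there.

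The only named CCR gain was chr14:784001-786000, with 68.8%, 43.7% and 37.5% against 41.3%, 50.6% and 34.9%, in which H08 alone stood above the low group. Upstream of ZNF16, 3 regions were singled out after their values had been seen, for the largest CCR differences over at least 10 matched positions. This choice favours high counts of positions that are lower in high CCR. Positions of the same region and the same bulls are also not independent, so these counts are given as a description. In chr14:888001-890000 the high bulls had 36.0%, 15.8% and 15.9% and the low bulls 58.7%, 50.9% and 44.1%, lower at 36 of 36 positions. In chr14:924001-926000 the values were 27.0%, 16.2% and 16.7% against 45.7%, 49.8% and 30.4%, lower at 32 of 32. In chr14:1074001-1076000 they were 47.8%, 32.0% and 36.2% against 53.5%, 71.4% and 41.5%, lower at 47 and higher at 2 of 51 positions, and the groups overlapped. limma called 0 window regions for CCR, with 20 (3.92%) at an unadjusted p under 0.05 against 4.11% of the genome, and the F test called 0, with 31 (6.08%) against 3.29%. Without L06 the logistic test called 96 of 513 window regions in place of 147 of 510, where 8.79% of the genome was called.

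For SCE, 60 of 412 tested window regions (14.6%) were DMRs, 42 of them higher and 18 lower in high SCE, where 6.18% of all 537495 tested regions were called. Of the 140 upstream regions of intermediate level listed at 25 or more reads per position 34 (24.3%) were called, against 115 of 1377 such regions elsewhere (8.35%). At matched positions 41 (68.3%) were kept against 53.8% of the DMRs of the genome, and the stratified test called 31 (7.52%) against 1.31% of the genome. The groups did not overlap in 34 regions (8.25%), which is below the 9.26% of the genome. Upstream 43 of 319 tested regions (13.5%) were DMRs, 37 of them higher in high SCE, and 36 of the 43 were kept at matched positions. Downstream 17 of 93 (18.3%) were DMRs, 12 of them lower, and only 5 of the 17 were kept. Of the 33224 DMRs of the genome 19051 were lower in high SCE.

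The high-SCE bulls had upstream levels, over the same 290 regions, of 41.1% (H03), 47.7% (H07) and 37.5% (L02) and the low-SCE bulls 39.3% (H01), 42.4% (H06) and 37.5% (L09). H07 alone stood above the low group. The mean over the window was 51.4% ± 3.88 in high and 50.3% ± 2.09 in low SCE, a difference of 1.10 points (exact permutation test, two-sided, p = 0.70, adjusted p = 1). Within the 3 bulls with read counts it was -0.35 points and within the 3 without 4.97 points. Without H07 the difference was -1.08 points, and 29 of 418 regions were called in place of 60 of 412. That share was near the 6.17% of the genome called without H07. limma called 0, with 14 (3.40%) at an unadjusted p under 0.05 against 3.81% of the genome, and the F test called 0, with 7 (1.70%) against 2.67%. Both shares of the window were below those of the genome.

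The named SCE gains lay close together in the upstream stretch. In chr14:1030001-1032000, also a BDE region, the high-SCE bulls had 50.9% (H03), 86.0% (H07) and 41.4% (L02) and the low bulls 30.6% (H01), 39.4% (H06) and 30.9% (L09), with a difference of 23.9 points pooled and 20.1 points at 20 matched positions. In chr14:1018001-1020000 the values were 73.0%, 89.1% and 70.9% against 72%, 40.5% and 59.7%. H06 listed 26 positions in that region and the other 5 bulls between 6 and 10, and at the 10 matched positions the difference was 9.52 points in place of 27.2.

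The named SCE losses were chr14:2248001-2250000, with 8.4%, 9.7% and 73.6% in the high and 54.5%, 97.3% and 48.0% in the low bulls, and chr14:1476001-1478000, with 76.2%, 78.8% and 92.3% against 100%, 98.6% and 90.0%. The groups overlapped in both. The pooled difference of the first was -43.2 points, but -5.23 points at 12 matched positions, and that of the second was -16.7 points and -9.16 points at 2 matched positions.

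For GL, the trait by which the window was chosen as a QTL, the share of DMRs in the window was below that of the genome when all GL bulls were compared. Of 484 tested regions 30 (6.20%) were DMRs, 19 of them lower and 11 higher in high GL, where 8.75% of all 593044 tested regions were called, and the median difference was 0.12 points. Of the 140 upstream regions of intermediate level listed at 25 or more reads per position 5 (3.57%) were called, against 142 of 1377 such regions elsewhere (10.3%). At matched positions 9 of the 30 (30%) were kept against 44% of the DMRs of the genome. The stratified test called 9 regions (1.86%) against 2.15% of the genome, and the groups did not overlap in 7 regions (1.45%) against 3.3%. Upstream of ZNF16 8 of 315 regions (2.54%) and downstream 22 of 169 (13%) were DMRs.

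Upstream, the high-GL bulls had 41.1% (H03), 32.8% (H09), 48.6% (L03) and 39.0% (L05), and the low-GL bulls 44.4% (H02), 37.3% (H05), 37.7% (L01) and 40.5% (L07). The high group held bulls from both ends of the order and the low group lay within its range. The window mean was 54.2% ± 4.45 in high and 54.1% ± 1.99 in low GL (SD, n = 4 each), a difference of 0.073 points (exact permutation test, two-sided, p = 0.97, adjusted p = 1, where 0.0286 is the smallest value that 4 against 4 bulls allow). It was 2.50 points within the 4 bulls with read counts and -2.36 points within the 4 without. limma called 0, with 9 (1.86%) at an unadjusted p under 0.05 against 4.91% of the genome, and the F test called 0, with 13 (2.69%) against 4.67%. Without H09 the logistic test called 63 of 500 window regions in place of 30 of 484, a share above the 9.12% of the genome. Without H02 it called 46 of 513, about the 8.93% of the genome. The lower share of the window was thus not kept without either of these bulls.

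The 9 GL regions kept at matched positions were 5 losses and 4 gains. The largest loss was chr14:970001-972000, where the high bulls had 43.6% (H03), 37.7% (H09), 55.0% (L03) and 26.1% (L05) and the low bulls 58.6% (H02), 38.8% (H05), 50.4% (L01) and 74.2% (L07), a difference of -14.6 points pooled and -14.9 at 14 matched positions. The groups overlapped there, and L07 was the highest of all 18 bulls. L07 was also the highest low-GL bull by far in chr14:858001-860000, with 77.1% against 39.2% to 51.3% in the other low bulls and 31.5% to 45.1% in the high bulls. In chr14:780001-782000 the high bulls ran from 20.8% to 33.1% and the low bulls from 26.7% to 49.5%.

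Only 1 of the 9 had groups without overlap: chr14:2092001-2094000, downstream of MROH1, with 85.5%, 88.1%, 80% and 90% in the high and 100%, 95.5%, 95.2% and 91.8% in the low bulls. Its difference was -7.79 points pooled and -6.74 points at 23 matched positions, its adjusted p in limma was 0.98, and H02 and H05 listed 2 positions each there. The fifth loss, chr14:1542001-1544000 between ZNF16 and ARHGAP39, had 2.08% to 21.5% in the high and 17.8% to 27.0% in the low bulls.

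The largest gain, chr14:770001-772000, had 42.2%, 27.0%, 61.5% and 50.9% in the high and 40.6%, 30.3%, 22.4% and 44.4% in the low bulls, with a difference of 14.99 points pooled and 8.70 points at 8 matched positions. In chr14:664001-666000 L03 had 68.9% and L05 49.7%, whereas H03 with 35.6% and H09 with 22.9% lay within or below the low group. The other gains were chr14:2078001-2080000, with 9.69 points pooled and 12.3 points at 80 matched positions, and chr14:1366001-1368000, with 5.02 and 5.78 points. The groups overlapped in all 4 gains.

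For SCR, whose 6 bulls all have read counts, 65 of 403 tested regions (16.1%) were DMRs, 30 lower and 35 higher in high SCR, where 8.68% of all 549229 tested regions were called. Of the 140 upstream regions of intermediate level listed at 25 or more reads per position 30 (21.4%) were called, about the same share as the 309 of 1377 such regions elsewhere (22.4%). At matched positions 36 (55.4%) were kept against 51.1% of the DMRs of the genome. Only 6 regions (1.49%) passed the stratified test, which is near the 1.16% of the genome, and the groups did not overlap in 18 regions (4.47%) against 9.13%. The difference of the window mean was -0.053 points, with 51.4% ± 1.54 in high and 51.5% ± 5.11 in low SCR (SD, n = 3 each, exact permutation test, two-sided, p = 1). Over the 290 upstream regions the high-SCR bulls had 39.3% (H01), 44.4% (H02) and 41.1% (H03) and the low-SCR bulls 37.7% (L01), 37.5% (L02) and 48.6% (L03), so L03 stood above and the other two low bulls below the high group.

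The largest named SCR loss was chr14:1926001-1928000, with 30%, 29.3% and 48.1% in the high and 74.3%, 59.9% and 99.1% in the low bulls, a difference of -40.5 points pooled and -9.93 points at 7 matched positions. In chr14:1476001-1478000 the values were 100%, 60.0% and 76.2% against 97.2%, 92.3% and 90.6%. The gains were chr14:506001-508000, with 40.0%, 51.0% and 47.1% against 31.5%, 24.8% and 43.5%, and chr14:2190001-2192000, where H02, L01 and L02 listed 1 position each. limma called 0, with 9 (2.23%) at an unadjusted p under 0.05 against 4.03% of the genome, and the F test called 0, with 8 (1.99%) against 3.15%. With 10 reads for each position in place of the listed counts 29 of 403 regions were DMRs, a share nearer to the 6.05% of the genome in that run. Without L03 117 of 419 and without H01 105 of 519 were, against 8.6% and 9.38% of the genome.

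**Figure D4:**
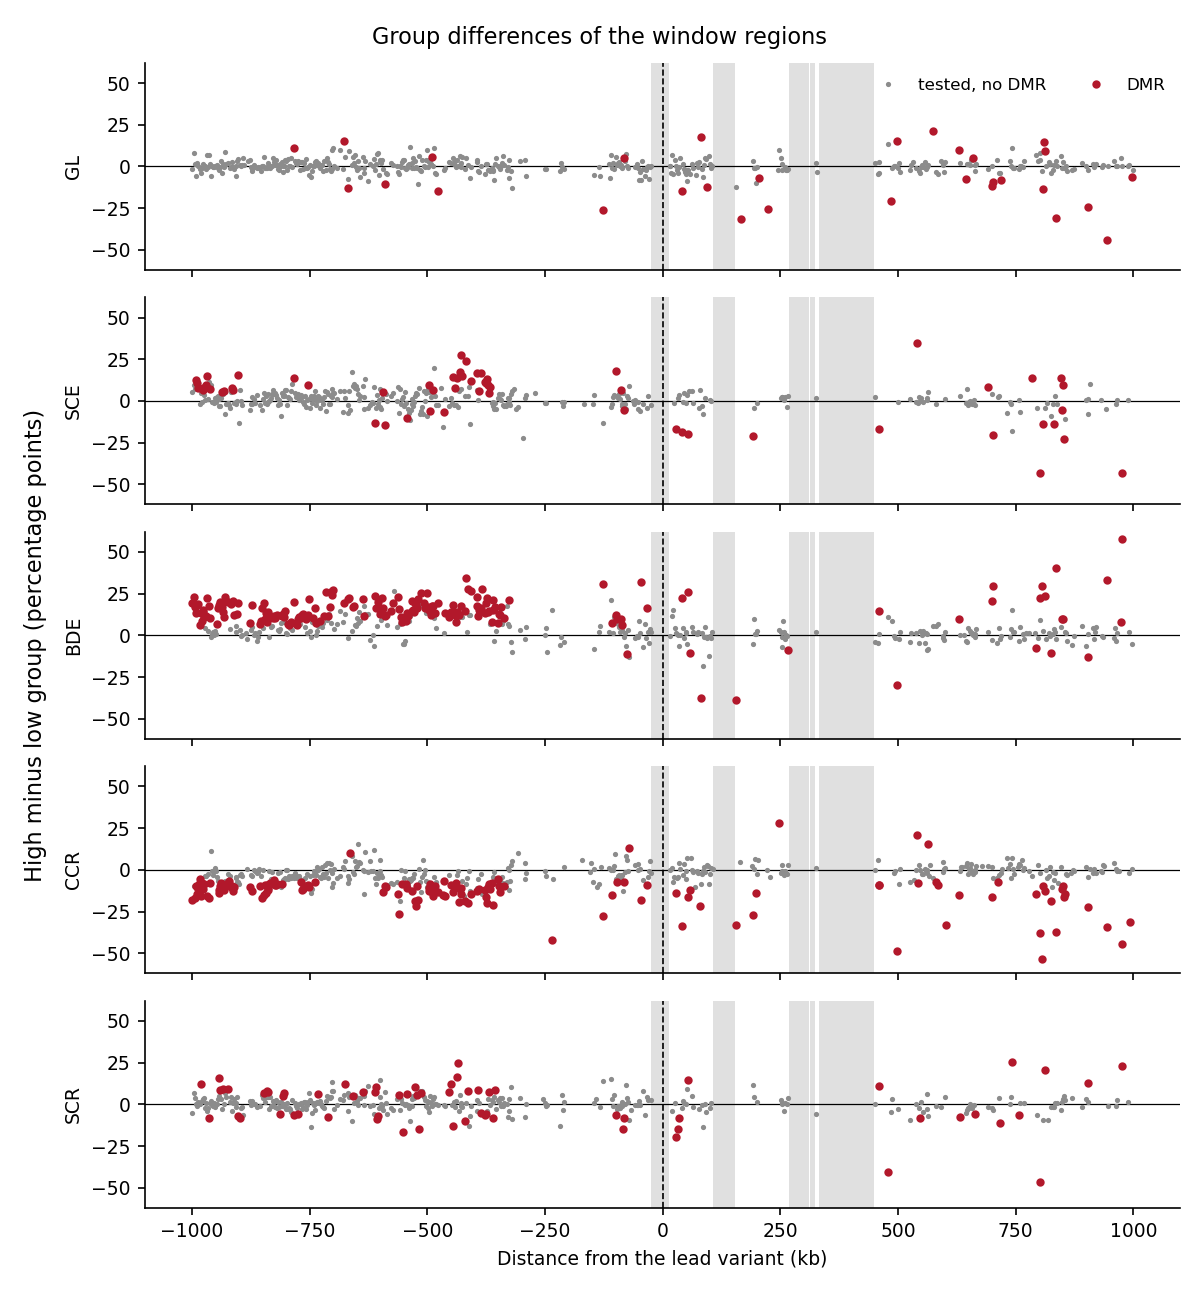
Difference between high and low group (percentage points, pooled over listed positions) of each tested window region, by distance from the lead variant in kb, for the 5 traits; larger dots are DMRs of the logistic test. BDE differences upstream of ZNF16 lie mostly above and CCR differences mostly below 0, with medians of 10.8 and -5.32 points, and the GL differences upstream have a median of 0.21 points.

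**Figure D5:**
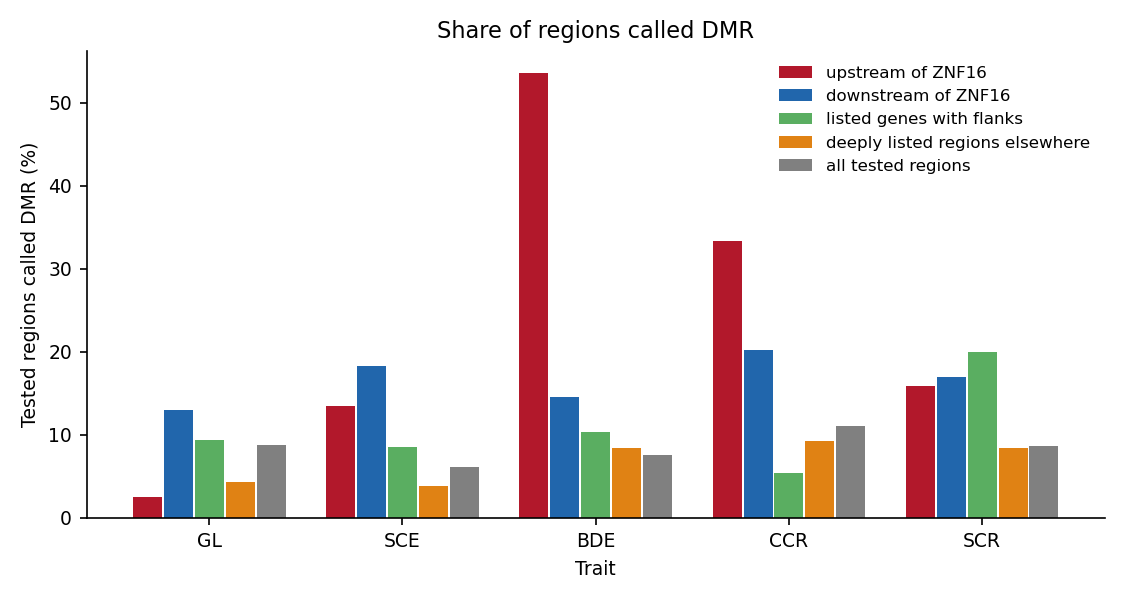
Share of tested regions called DMR (percent) by trait, for window regions upstream and downstream of ZNF16, regions of the listed genes with flanks, deeply listed regions elsewhere and all tested regions of the genome. The upstream share is 53.6% for BDE and 33.4% for CCR, and for GL it is 2.54%, below the 8.75% of all tested regions.

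Of the 5 regions that varied most between bulls, by the SD over 18 bulls among the 362 listed in all, 3 had 4 or more bulls with only 1 to 3 listed positions. The largest SD was 29.8 points in chr14:1534001-1536000, where H02, H07 and L08 had 0% from 1 listed position each and the bulls with 5 or more positions had between 48.4% and 83.5%. It was followed by chr14:2190001-2192000 with 29.6 points, where 8 bulls listed 1 position. The third was chr14:1320001-1322000 with 29.5 points, from 0% in L02 and L08 to 84.8% in L01. The remaining 2 were chr14:2248001-2250000 with 26.8 points, and chr14:2424001-2426000 with 26.4 points. In the latter H05, H07, H08, H09 and L02 had between 18.1% and 49.9%, from 4 to 49 listed positions each, and the other 13 bulls between 78.5% and 97.4%. These values were not tested. The median SD of the 290 upstream regions listed in all bulls was 7.64 points and that of 12380 other chromosome 14 regions 4.56 points.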

How the data were processed

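Whole-genome bisulfite sequencing of sperm from 18 Holstein bulls was analysed. Per the labels and the methods of the study, the authors trimmed the reads with Trim Galore 0.4.0, mapped them to UMD3.1 with Bowtie2 and extracted methylation with Bismark 0.14.5. The values the authors deposited are, for CpG positions with 10 reads or more, the percent of reads that are methylated. The deposited files of 6 bulls add the read count of each position, from 10 to 100, with means between 12.8 and 13.7 per bull. For 12 bulls the depth is unknown, so the number of bulls sets the precision and no counting intervals are given.

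Positions were grouped into regions of 2000 bp, and a region counts with its mean over listed positions. A region was tested where all bulls of a comparison listed it. The design had assumed counts for all bulls, and each position was therefore given 10 reads except in SCR, where listed counts were used. Logistic regressions, tested by likelihood ratio, were fitted to all regions, and q values were set by a simplified SLIM method. limma 3.58.1 (R 4.3.3) used log2 ratios from the deposited values, after 1 read had been added to either side, with Benjamini-Hochberg adjustment. The F test had an overdispersion term, and the stratified test was a Cochran-Mantel-Haenszel test over matched positions. The stratified test took 10 reads for each position in SCR as well. Mean levels were compared by exact permutation tests over bulls. The region tests were also run on simulated reads drawn without spread between bulls, and the outcome is not given here. These runs do not show how the tests deal with that spread. Python 3.11.15, NumPy 2.4.6 and SciPy 1.17.1 were used.

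Named regions were up to 5 losses and 5 gains for GL and up to 2 of each for the other traits, by pooled difference among DMRs that kept over 5 points at matched positions, the 5 longest runs of low regions, the 5 regions with the largest SD, and the first and last region. The window, its members and these rules were chosen with earlier results of these data known. Bull numbers shared by the H and L bulls of SCR did not pair the samples. The labels do not say that a bull was sampled more than once. No UMD3.1 annotation was used, so the sperm label was not checked against marker genes, and gene order came from the RefSeq table of ARS-UCD2.0, in which all 12 listed genes were found.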

Additional observations from a re-analysis of the deposited data

Results flagged for a closer look

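In the low-GL group of 4 bulls, H05 had a mean of 74.6% over the window regions downstream of ZNF16 and lay apart from the other 3, by 0.85 of the range of the group. Of 24 such checks on GL groups this was the only one past the limit, and chance gives about 1 in 20. H05 was listed in 703 of the 770 window regions, and over the 72 downstream regions listed in all 18 bulls it had 77.9%, between the 77.2% of H02 and the 78.2% of L01.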

How the results depend on the processing

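The differences of the window from the rest of chromosome 14 and from the regions of the listed genes kept their direction and p under 0.05 under every alternative run, and ranged from -41.8 to -8.64 and from -37.9 to -2.96 points. The BDE difference stayed positive in all and the CCR difference negative in all, but the CCR difference was -0.98 in place of -5.21 points when each listed position had the same weight (exact permutation p = 1). Leaving out single bulls gave 6.61 to 8.40 points for BDE, -7.74 to -3.50 for CCR, -1.81 to 1.81 for GL, -1.08 to 2.87 for SCE and -1.74 to 2.71 for SCR. The sign of the GL difference turned without H03 (-0.17), L03 (-1.81), H05 (-0.56) or L01 (-0.27), within the files that list no coverage (-2.36) and in the regions downstream of ZNF16 (-0.41). That of SCE turned without H07 (-1.08), within the files that list coverage (-0.35) and downstream (-1.75). That of SCR turned without H01 (0.53), H03 (0.11) or L03 (2.71), at positions listed in all 6 bulls (0.11) and upstream (0.096). The split at ZNF16 was chosen after seeing the data.

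The F test and limma called 0 DMRs in the window in all 5 traits, and 0 in the whole genome. With a threshold of 10 points the DMRs were 35 of 412 for SCE, 93 of 510 for CCR and 23 of 403 for SCR. In the genome that threshold called 4.65%, 7.09% and 5.64%, so the SCR share was about that of the genome. With at least 3 positions per bull 14 were called for GL. That filter left 329368 regions of the genome, of which 8.77% were called. The number of window regions it left is not given here, so the shares of that run are not compared. At matched positions 9 were called for GL, 31 for SCE, 94 for CCR and 6 for SCR, against 2.15%, 1.31%, 4.37% and 1.16% of the genome. With 10 reads per position, which the run at matched positions also took, 29 were called for SCR, against 6.05% of the genome. Leaving out single bulls gave 29 to 63 for GL, 29 to 83 for SCE, 164 to 200 for BDE, 96 to 198 for CCR and 69 to 117 for SCR. In the genome these runs called 7.84% to 9.12% for GL, 6.17% to 6.8% for SCE and 6.93% to 7.79% for BDE. For CCR they called 8.53% to 16.9% and for SCR 8.47% to 9.38%. Why these counts moved was not tested. With the bull number as a replicate block 49 SCR DMRs were found in place of 65. In the genome that run called 7.09% in place of 8.68%, so the share fell there too. The 3 pairs of H and L bulls of the same number in SCR deviated no more alike than those of different numbers, so these numbers do not pair the SCR bulls. The unknown depth of 12 bulls limits all comparisons but SCR, and where a bull lists 1 to 3 positions its region mean rests on few reads.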

Other observations

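H04 and L04, which belong to no group, stood at different places in the order of the upstream level. Over the 290 upstream regions listed in all bulls H04 had 45.1% and L04 37.1%, and at the 2678 upstream positions listed in all bulls they had 42.3% and 33.7%. Over the 72 downstream regions they had 80.2% and 78.3%.

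In chr14:1018001-1020000, upstream of ZNF16, H06, L04 and L06 listed 26 positions each and had 40.5%, 33.4% and 28.2%. The other 15 bulls listed between 6 and 11 positions and had between 58.5% and 89.1%. The mean of the region in a bull thus went with the number of positions listed there, and its listed depth was high, at 48.0 reads per position in the 6 bulls with read counts.

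Downstream of ZNF16, 7 regions had 15 or more listed reads per position. Their mean was 28.2% ± 6.61 (SD, n = 18), from 14.9% in H09 to 39.4% in H06, and 3 of them were low and 4 intermediate.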
